A study of Mus musculus with 8 samples.

Results

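Genes of the coagulation and complement cascades were followed across liver RNA-seq libraries of mice with a ligated bile duct. A list of 36 gene names was matched to the gene names of the deposited tables, 18 for coagulation and 18 for complement. Of these, 35 matched 1 gene ID each, all 18 coagulation genes and 17 complement genes, out of 53816 gene IDs in all. The name that did not match is C5: the tables list complement component 5 under its mouse symbol, Hc, which is therefore given beside the members and not counted among them. The 35 lie on 14 chromosomes, and 23 were among the 1000 most abundant genes tested. All 35 were on average above 1 TPM (a level corrected for gene length and scaled to the same total in each library) and so entered the test over 13055 genes. Of the 8 libraries 4 were from wild-type control mice and 4 from mice labelled as overexpressing Myc in liver sinusoidal endothelial cells. All 8 were from mice that had undergone bile duct ligation, an operation that stops bile from leaving the liver. For strain, age, sex, time after surgery and the promoter or Cre line behind the overexpression, the sources used here give no entry. Endothelial cells are a small share of liver tissue, and RNA was taken from liver, so fewer cells of a type and less RNA per cell cannot be told apart.

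Hepatocytes make and secrete most of the plasma proteins of both systems. In coagulation, serine protease zymogens activate each other in sequence until thrombin, the product of F2, cuts fibrinogen to fibrin, while antithrombin, heparin cofactor and the protein C pathway hold the sequence back. Complement is started by antibody-bound C1, by lectins that bind microbial sugars or by slow turnover of C3, and all routes cleave C3 and end in the pore formed from C5b to C9. Fibrinogen, C3, C4 and factor B are classical acute-phase proteins, whose genes are switched on in hepatocytes by interleukin-6 and interleukin-1, and several clotting factors need vitamin K, whose uptake depends on bile.

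Depth, derived from coverage and FPKM, was 5.29 to 6.74 Gb of aligned bases per library. Myc-labelled replicate 3, often an extreme below, had the fewest genes at 1 TPM or more, 12442 against 12741 to 13636 in the other libraries. It also had the lowest array weight, a weight limma sets by a library's spread, at 0.42 against 0.588 to 3.32. The part of this in the member values was not tested. Myc itself did not follow the labels: its level was 272, 207, 554 and 89.2 TPM from control 1 to 4 and 339, 356, 25.6 and 249 TPM from Myc-labelled 1 to 4 (limma adjusted p = 1.0). Directions below therefore rest on the labels, and the second group is called Myc-labelled. Xist, the RNA of the inactive X chromosome, divided the libraries across the groups. Its level was 32.8, 41 and 35.2 TPM for control replicates 1, 2 and 4 and 43.3 and 33.6 TPM in Myc-labelled replicates 1 and 2. In control replicate 3 and Myc-labelled replicates 3 and 4 it stood at 0.0542, 0.0574 and 0.0454 TPM.

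No gene of either cascade passed the test between the groups. Of the 35 members 0 passed an adjusted p of 0.05 (limma on log2(TPM + 1), Benjamini-Hochberg over all 13055 genes), against 0.0% of all genes, and every member had an adjusted p of 1.0. At an unadjusted p under 0.05 there were 0 members as well, where 1.86% of all genes lay. Of the coagulation members 11 of 18 stood lower in the Myc-labelled libraries and 7 higher, with a median log2 difference of -0.07. Of the complement members 13 of 17 stood lower and 4 higher, with a median of -0.14. Over all genes tested 42.0% stood lower and the median was 0.04. Among the 2155 tested genes at or above the level of the least abundant member, 1147 stood lower and 1008 higher, with a median of -0.01. Fold differences are on the log2(TPM + 1) scale, Myc-labelled minus control, given ± SE.

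**Figure D1:**
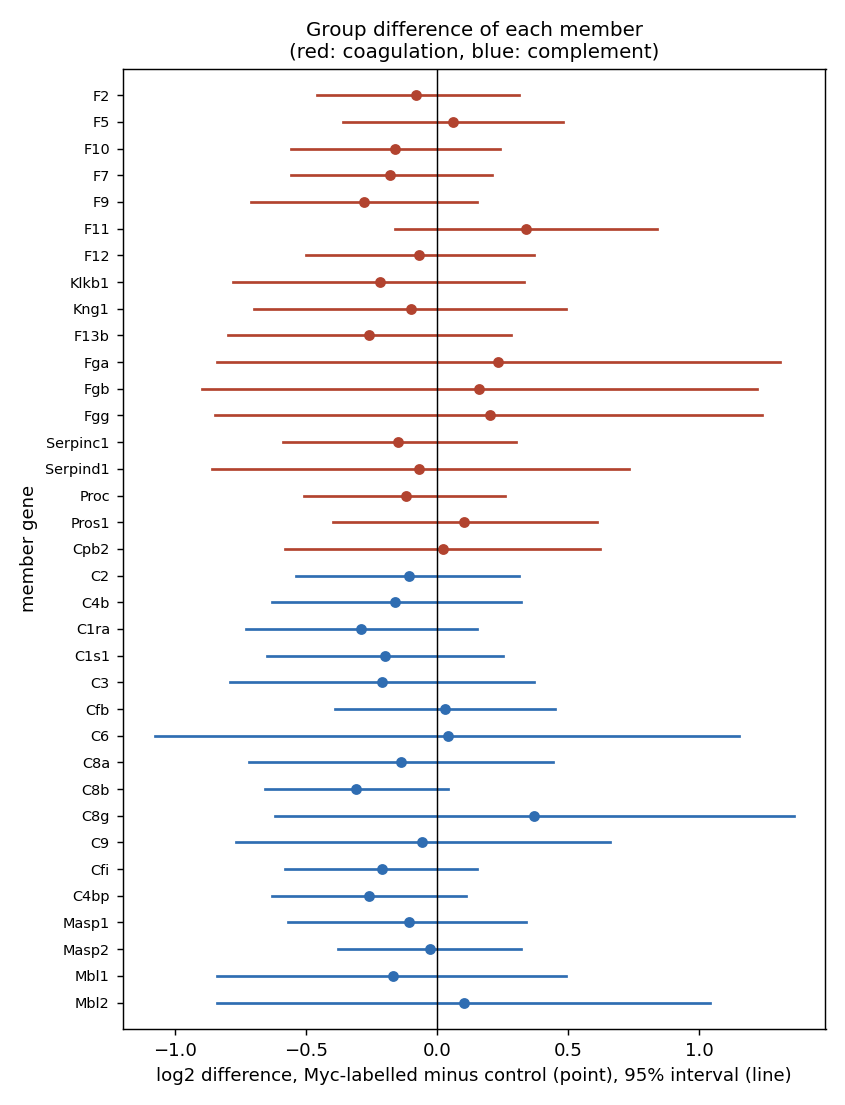
Each point is the log2 difference in log2(TPM + 1), Myc-labelled minus control, of 1 member gene, and each line its 95% interval from limma over 4 libraries per group, with coagulation genes in red and complement genes in blue. All 35 intervals cross 0, and the widest are those of C6, from -1.08 to 1.15, and Fga, from -0.84 to 1.31.

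The interval of the difference reached, at the median, 0.50 log2 units to either side for coagulation members and 0.45 for complement members, against 0.47 over all genes. Point differences ran from -0.28 for F9 to 0.34 for F11 among the coagulation genes. They ran from -0.31 for C8b to 0.37 for C8g among the complement genes. Only C8b, which encodes the beta chain of complement component 8, had groups that did not overlap. All 4 of its Myc-labelled values lay below all 4 control values. Over all 13055 genes tested, 42 (0.322%) were apart in this direction and 122 in the other.

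The genes of fibrinogen, the soluble precursor of the fibrin clot, had the widest fold range over the libraries of all coagulation members, and moved as a block. Fga, Fgb and Fgg encode the alpha, beta and gamma chains and lie side by side on chromosome 3 (mm10), Fgg from 83007724 to 83015049, Fga from 83026076 to 83033627 and Fgb, on the opposite strand, from 83040141 to 83049863. Gaps of 11026 and 6513 bases separate them. The sequence upstream of each start is shown because the 3 genes had the same order over the 8 libraries. It comes from RefSeq on GRCm38.p6, 5′ to 3′ on the gene's strand, and capitals mark the motif letters searched for. The Fga window is chr3:83025903-83026075 on the + strand and stops 77 bases before the RefSeq start, where the annotated gene begins. The Fgb window is chr3:83049864-83050113 on the - strand and the Fgg window chr3:83007474-83007723 on the + strand.
Fga: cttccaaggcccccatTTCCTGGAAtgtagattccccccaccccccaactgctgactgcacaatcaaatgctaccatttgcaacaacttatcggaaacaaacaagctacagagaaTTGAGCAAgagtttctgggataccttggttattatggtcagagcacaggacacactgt
Fgb: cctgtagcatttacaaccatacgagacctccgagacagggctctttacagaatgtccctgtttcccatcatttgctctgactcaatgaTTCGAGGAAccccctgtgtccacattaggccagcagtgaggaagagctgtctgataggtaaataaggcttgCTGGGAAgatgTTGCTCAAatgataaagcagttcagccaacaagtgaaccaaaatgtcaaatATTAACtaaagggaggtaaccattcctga
Fgg: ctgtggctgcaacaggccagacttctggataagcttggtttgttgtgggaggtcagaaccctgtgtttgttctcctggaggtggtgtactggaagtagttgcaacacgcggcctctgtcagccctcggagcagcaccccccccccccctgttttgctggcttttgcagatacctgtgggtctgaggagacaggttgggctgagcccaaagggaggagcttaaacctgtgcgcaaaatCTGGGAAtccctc

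4 motifs of liver and acute-phase factors were searched on both strands in the 250 bases before each start. They were the HNF1 half-site GTTAAT, the C/EBP motif TTGCNNAA, the core CTGGGAA of the interleukin-6 response element and the STAT motif TTCNNNGAA, of which the last can overlap with the core, as it does in F9 and Masp2. Fgb held all 4: STAT letters from 162 bases before the start, the CTGGGAA core from 91, C/EBP letters from 80 and the HNF1 half-site, as its reverse complement ATTAAC, from 29. Fga held STAT letters from 234, C/EBP letters, as TTGAGCAA, from 135 and the half-site from 43 bases before the start, the last in the stretch not printed. Fgg held the CTGGGAA core alone, from 13 bases before its start. Windows were found for 28 of the 35 members, 16 of coagulation and 12 of complement. Of these 28, 7 held the HNF1 half-site (25.0%, against 6.43% of all 32851 windows), namely F13b, Fga, Fgb, C8a, C8b, C1ra and C4bp. The C/EBP letters were in 8 windows (28.6% against 9.56%), those of F9, F11, Fga, Fgb, Klkb1, C3, C9 and C1s1. The CTGGGAA core was in 5 (17.9% against 9.1%), those of F9, Fgb, Fgg, C1ra and Masp2. STAT letters were in 6 (21.4% against 7.02%), those of F9, Fga, Fgb, Pros1, C8a and Masp2. For each member only the window nearest its annotated start was used. The share over all windows counts every window listed, whatever the level of its gene in liver, so the shares are not built alike. These are matches of letters and were not tested as binding sites.

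Fga stood at 8396, 18207, 7093 and 4865 TPM from control 1 to control 4 and 6451, 6138, 21450.2 and 11785 TPM from Myc-labelled 1 to Myc-labelled 4. Its highest values were in Myc-labelled replicate 3 and control replicate 2, and its lowest in control replicate 4, so the groups overlapped over most of their range. Fgg stood at 9091, 16017, 6139.6 and 4333 TPM in controls 1 to 4 against 6041, 5730.1, 18597 and 10405 TPM in Myc-labelled 1 to 4. Fgb stood at 5414, 9763, 3529 and 2648 TPM in controls 1 to 4 against 3458, 3441, 11113 and 5826 TPM in Myc-labelled 1 to 4. All 3 genes were highest in Myc-labelled replicate 3, next in control replicate 2 and lowest in control replicate 4. The highest library exceeded the lowest by 4.41-fold for Fga, 4.2-fold for Fgb and 4.29-fold for Fgg, while the median member of the coagulation list varied 2.01-fold and the median gene tested 2.03-fold. The log2 difference between the groups was 0.23 ± 0.48 for Fga (95% interval -0.84 to 1.31), 0.16 ± 0.47 for Fgb (-0.90 to 1.22) and 0.20 ± 0.47 for Fgg (-0.85 to 1.24). Each turned negative without Myc-labelled replicate 3, at -0.14, -0.20 and -0.15, and without control replicate 4, at -0.04, -0.12 and -0.09.

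Chain ratios varied less than levels, by 1.09-fold to 1.3-fold. TPM is per length, so levels can be set against each other between genes. The ratio of Fgg to Fgb was 1.64 to 1.79 over the 8 libraries, that of Fga to Fgb 1.55 to 2.02 and that of Fga to Fgg 0.923 to 1.16. Control replicate 1 had the lowest Fga to Fgb and Fga to Fgg ratios, at 1.55 and 0.923. Together the 3 genes made up 2.29, 4.4, 1.68 and 1.18% of all TPM in control replicates 1 to 4. In Myc-labelled replicates 1 to 4 they made up 1.6, 1.53, 5.12 and 2.8%. They were 61.0 to 84.7% of the summed TPM of all coagulation members in every library.

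**Figure D2:**
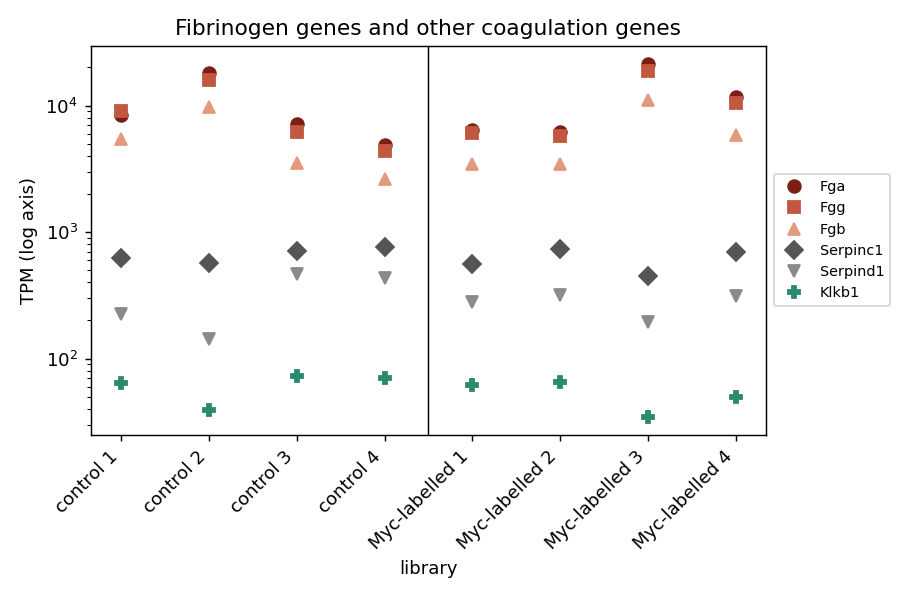
TPM on a log axis in each of the 8 libraries, controls left and Myc-labelled right of the line, for the fibrinogen genes Fga, Fgg and Fgb, the antithrombin gene Serpinc1, the heparin cofactor gene Serpind1 and the prekallikrein gene Klkb1. The 3 fibrinogen genes peak together in control replicate 2 and Myc-labelled replicate 3, the libraries in which Serpind1 and Klkb1 have their 2 lowest values.

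Other acute-phase genes, 22 in a list that holds no member, had a mean centred log2 level of 0.06, 0.52, -0.80 and 0.08 in control replicates 1 to 4 and -0.13, -0.39, 0.49 and 0.16 in Myc-labelled replicates 1 to 4. Control replicate 2 and Myc-labelled replicate 3 were the highest 2 on this measure too, and control replicate 3 the lowest. None of the 22 passed the test (14 higher, 8 lower, median 0.06), and 1 had an unadjusted p under 0.05, Il6ra, the interleukin-6 receptor, at 16.4 ± 2.96 TPM under control against 12.3 ± 1.61 TPM under the Myc label (SD, n = 4). The next smallest p-values were those of Orm3, an orosomucoid, at 166 ± 88.1 TPM under control against 101 ± 5.84 TPM under the Myc label (SD, n = 4), and of Crp, the C-reactive protein gene, at 347 ± 111 TPM under control against 263 ± 129.6 TPM under the Myc label (SD, n = 4). The summed level of 18 hepatocyte markers was 86824 to 148635 TPM in the controls and 85284 to 130326 TPM in the Myc-labelled libraries, with no marker at 0. Of these markers 16 stood lower and 2 higher (median -0.12), with 0 past the threshold and 1, Cps1, at an unadjusted p under 0.05 (limma). Their mean centred log2 level was lowest in Myc-labelled replicate 3 (-0.43), control replicate 2 (-0.31) and Myc-labelled replicate 4 (-0.28), the libraries with the 3 highest Fga levels. With that mean as a covariate the log2 differences were -0.19 for Fga, -0.23 for Fgb and -0.19 for Fgg. Marker and fibrinogen levels are scaled to the same total in each library, so this fit cannot separate the share of hepatocytes from the fibrinogen level. The part of these lists in the fibrinogen values was not tested.

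F13b, the carrier subunit of the factor that cross-links fibrin, did not share the fibrinogen pattern. It stood at 130.1, 87, 109.7 and 120.0 TPM in controls 1 to 4 against 119.9, 119, 58.7 and 84.9 TPM in Myc-labelled 1 to 4. Its lowest value was in Myc-labelled replicate 3, where fibrinogen was highest. Its log2 difference was -0.26 ± 0.25, and -0.05 without that library.

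Among the factors of the common pathway, the prothrombin gene F2 varied least. F2 stood at 1259, 1247, 1222 and 1414 TPM in controls 1 to 4 against 1160.0, 1408, 1032 and 1301 TPM in Myc-labelled 1 to 4. The groups overlapped, Myc-labelled replicate 3 was lowest and the log2 difference was -0.08 ± 0.17. F5, the cofactor that speeds prothrombin cleavage, stood at 60.8, 72.6, 99.5 and 92.6 TPM in controls 1 to 4 against 90.7, 87.6, 81.5 and 74.3 TPM in Myc-labelled 1 to 4. Its lowest and highest values were both controls, replicates 1 and 3, and its log2 difference was 0.06 ± 0.19. F10, whose product cleaves prothrombin, ranged over 226 to 347 TPM and was lowest in Myc-labelled replicate 3 as well (-0.16 ± 0.18).

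F7, the factor that tissue factor engages, lies 1498 bases from F10 on chromosome 8. It stood at 66, 63.3, 71.6 and 88.4 TPM in controls 1 to 4 against 56.5, 74.7, 58.2 and 65.8 TPM in Myc-labelled 1 to 4. Control replicate 4 held the highest value and the other 7 libraries overlapped (-0.18 ± 0.17). The ratio of F10 to F7 was 3.89 to 4.99, while F7 varied 1.57-fold and F10 1.54-fold.

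F9, the Christmas factor, on the X chromosome, stood at 113, 110.2, 101 and 129 TPM in controls 1 to 4 against 101, 104, 65.9 and 107 TPM in Myc-labelled 1 to 4. Myc-labelled replicate 3 stood apart from the other 3 of its group, and the log2 difference of -0.28 ± 0.19 became -0.12 without it. F11, a zymogen of the intrinsic pathway, stood at 32.5, 37.4, 62.9 and 57.8 TPM in controls 1 to 4 against 58.4, 49.5, 68.7 and 57.6 TPM in Myc-labelled 1 to 4. Control replicates 1 and 2 were the lowest 2 and Myc-labelled replicate 3 the highest, and the groups overlapped (0.34 ± 0.23). Its neighbour Klkb1, which encodes prekallikrein and lies 4657 bases away on chromosome 8, stood at 63.7, 39.2, 73.2 and 70.3 TPM in controls 1 to 4 against 61.2, 65, 34.5 and 49.7 TPM in Myc-labelled 1 to 4. Klkb1 was lowest in Myc-labelled replicate 3 and control replicate 2. Its log2 difference was -0.22 ± 0.25, -0.04 without the first of these and -0.42 without the second. The ratio of Klkb1 to F11 varied from 0.501 to 1.96. F12, which starts the contact pathway, ranged over 370.4 to 577 TPM (-0.07 ± 0.20). Kng1, the kininogen gene, ranged over 2420.3 to 4955 TPM with its 2 highest values in Myc-labelled replicate 3 and control replicate 2 (-0.10 ± 0.27). Its near copy Kng2 stood at 613 ± 170.0 TPM under control against 626 ± 188 TPM under the Myc label (SD, n = 4), with a ratio of Kng1 to Kng2 of 4.81 to 6.71.

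Inhibitors of clotting overlapped between the groups. Serpinc1, which encodes antithrombin, stood at 625, 572, 712 and 760.2 TPM in controls 1 to 4 against 563, 736, 452 and 690.1 TPM in Myc-labelled 1 to 4. It was lowest in Myc-labelled replicate 3 and highest in control replicate 4 (-0.15 ± 0.20, and -0.01 without the first of these). Proc, the protein C gene, stood at 392, 343, 432 and 456 TPM in controls 1 to 4 against 390.3, 419.7, 328 and 352 TPM in Myc-labelled 1 to 4, again lowest in Myc-labelled replicate 3 and highest in control replicate 4 (-0.12 ± 0.18). Serpind1, the heparin cofactor gene, described here after its values were seen, stood at 225, 143, 463 and 436 TPM in controls 1 to 4 against 282, 319, 194 and 312 TPM in Myc-labelled 1 to 4. It was lowest in control replicate 2 and next lowest in Myc-labelled replicate 3, and the control mean was 317 ± 157 TPM (SD, n = 4). The log2 difference between the groups was -0.07 ± 0.36, smaller than its SE. Pros1, the cofactor of protein C, ranged over 55.2 to 109 TPM (0.10 ± 0.23). Cpb2, a carboxypeptidase that slows fibrinolysis, ranged over 479.6 to 1061 TPM (0.02 ± 0.27). For Pros1 and Cpb2 the 2 highest libraries were Myc-labelled replicate 3 and control replicate 2, as for fibrinogen.

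**Figure D3:**
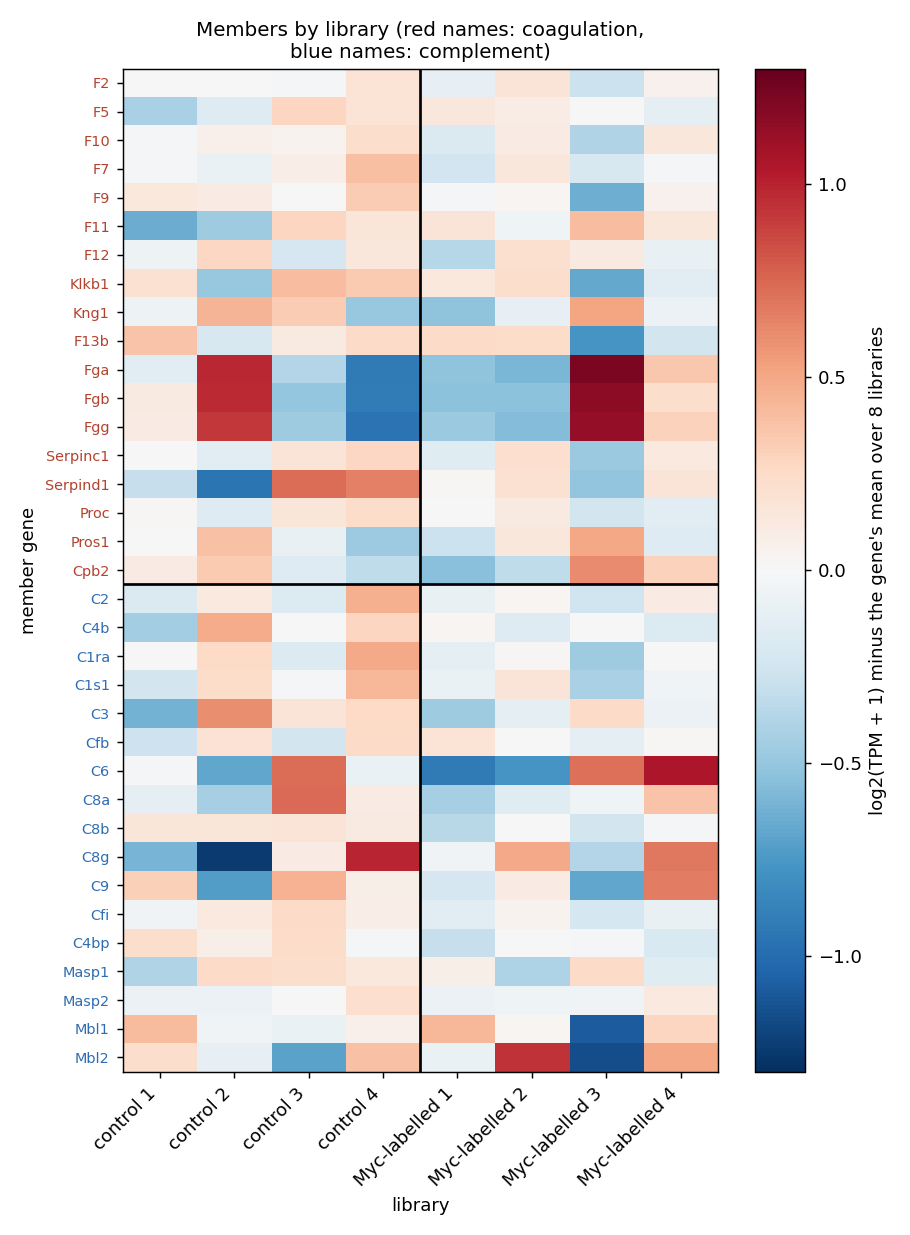
Colour gives log2(TPM + 1) minus each gene's mean over the 8 libraries, for 18 coagulation members above the line and 17 complement members below it, with control libraries left and Myc-labelled libraries right. Fga, Fgb and Fgg form a block that is high in control replicate 2 and Myc-labelled replicate 3, and Mbl1 and Mbl2 are lowest in Myc-labelled replicate 3.

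Complement genes of the classical pathway all stood lower in the Myc-labelled group, 4 of 4, and none passed the test. C1ra, the protease of the C1 complex that cleaves C1s, stood at 192, 229, 168 and 268 TPM in controls 1 to 4 against 175, 193, 139 and 189.5 TPM in Myc-labelled 1 to 4. Control replicates 2 and 4 were highest and Myc-labelled replicate 3 lowest, with overlap between (-0.29 ± 0.20). C1s1, its partner 6901 bases away on chromosome 6, ranged over 194 to 349.8 TPM (-0.20 ± 0.20), and the ratio of C1ra to C1s1 was 0.66 to 0.872. The copies C1rb and C1s2 stood at 28.8 ± 8.16 TPM under control against 22.7 ± 1.93 TPM under the Myc label (SD, n = 4) and at 2.9 ± 0.454 TPM under control against 1.56 ± 1.18 TPM under the Myc label (SD, n = 4). For C1s2 the unadjusted p was 0.0385 and the adjusted p 1.0 (limma), and reads that near copies share make the levels of C1s1, C1s2, C1ra, C1rb, C4b, C4a, Kng1 and Kng2 uncertain. C4b, the main C4 gene, stood at 506, 961, 690.3 and 841 TPM in controls 1 to 4 against 704, 614, 695 and 611 TPM in Myc-labelled 1 to 4. Its lowest and highest values were both controls, replicates 1 and 2 (-0.16 ± 0.22, -0.33 without the first and -0.02 without the second). C4a, a near copy, stood at 15.8 ± 3.34 TPM under control against 18.3 ± 8.96 TPM under the Myc label (SD, n = 4). C2, the protease that joins C4b in the C3 convertase, ranged over 76.9 to 128 TPM (-0.11 ± 0.19).

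Of the lectin pathway, both mannose-binding lectin genes were lowest in Myc-labelled replicate 3. Mbl1 stood at 105, 76, 73.8 and 82.7 TPM in controls 1 to 4 against 106, 80.2, 36.6 and 95.8 TPM in Myc-labelled 1 to 4. Mbl2 stood at 203, 160.2, 106 and 226 TPM in controls 1 to 4 against 163, 332, 77.1 and 245 TPM in Myc-labelled 1 to 4. The other 3 Myc-labelled libraries lay within or above the control range for both genes, and Mbl2 was highest in Myc-labelled replicate 2. Log2 differences were -0.17 ± 0.30 and 0.10 ± 0.42, and without Myc-labelled replicate 3 they were 0.16 and 0.50. Masp1, a protease bound to these lectins, stood at 54.1, 85, 83.9 and 78.6 TPM in controls 1 to 4 against 75.6, 53.9, 85.2 and 63.8 TPM in Myc-labelled 1 to 4. Its lowest and highest values were both Myc-labelled, replicates 2 and 3 (-0.11 ± 0.21). Masp2, the protease that cleaves C4 and C2, varied least of all members, over 98.1 to 121 TPM (-0.03 ± 0.16). Rtp4 overlaps Masp1 and Tardbp overlaps Masp2 on the opposite strand, at 22.2% and 29.4% of the member's mean TPM, and whether the authors counted by strand was not stated.

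C3, the component on which all routes converge, was the most abundant complement gene and stood at 4539, 10510.3, 7792 and 8300.4 TPM in controls 1 to 4 against 5036, 6349, 8217 and 6568 TPM in Myc-labelled 1 to 4. Control replicate 2 was highest and control replicate 1 lowest, so the Myc-labelled values lay inside the control range. The log2 difference was -0.21 ± 0.27. It became -0.04 when control replicate 2 was left out, -0.45 when control replicate 1 was, and -0.09 when Myc-labelled replicate 1 was. C3 made up 48.9 to 65.2% of the summed TPM of the complement members. Cfb, factor B of the alternative pathway, stood at 1275, 1750.5, 1299.5 and 1831 TPM in controls 1 to 4 against 1737, 1546, 1399 and 1553 TPM in Myc-labelled 1 to 4. Its Myc-labelled values also lay inside the control range (0.03 ± 0.19). The sign turned at -0.01 under median-of-ratios scaling. It also turned without control replicate 1 (-0.05), control replicate 3 (-0.04) or Myc-labelled replicate 1 (-0.02). Cfb and C2 are neighbours on chromosome 17, 85 bases apart, and their ratio was 14.3 to 20.1.

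Genes of the membrane attack complex did not share 1 order over the libraries. C6, which binds C5b first (chromosome 15, 4727175 to 4814967), stood at 38.2, 23.9, 65.3 and 36.6 TPM from control 1 to control 4 and 20.2, 22.5, 64.8 and 81.6 TPM from Myc-labelled 1 to Myc-labelled 4. Its 3 highest values were in control replicate 3 and Myc-labelled replicates 3 and 4, the 3 libraries with Xist under 1 TPM. Its other 5 values lay at 20.2 to 38.2 TPM. This order of C6 was noticed in the data and was not tested, and the share of all genes with it was not counted. The log2 difference between the groups was 0.04 ± 0.49, and -0.31 with log2 Xist as a covariate (limma unadjusted p = 0.179, adjusted p = 1.0). Without Myc-labelled replicate 4 it was -0.30, without Myc-labelled replicate 3 -0.20 and without control replicate 2 -0.18. C8a, the alpha chain of component 8 (chromosome 4, 104815679 to 104876398), stood at 187, 151, 341 and 219 TPM in controls 1 to 4 against 151, 182, 196 and 263 TPM in Myc-labelled 1 to 4. It was highest in control replicate 3 and Myc-labelled replicate 4, but Myc-labelled replicate 3 lay below control replicate 4, so the order of Xist was not kept (-0.14 ± 0.26, and -0.30 with Xist as a covariate).

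**Figure D4:**
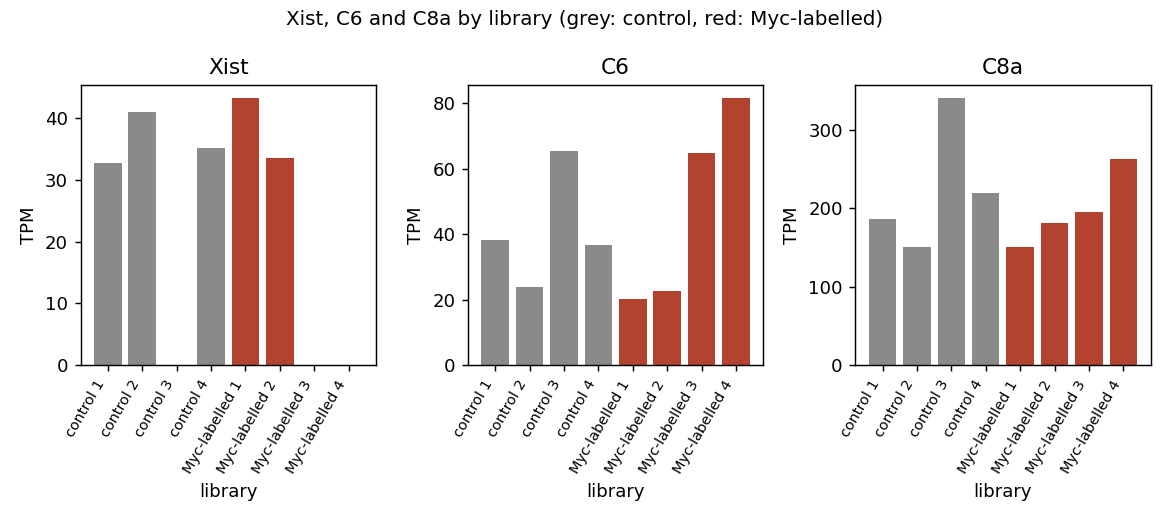
TPM of Xist, C6 and C8a in each of the 8 libraries, control bars in grey and Myc-labelled bars in red. C6 is at 64.8 to 81.6 TPM in the 3 libraries whose Xist bar is not visible and at 20.2 to 38.2 TPM in the other 5. This order was noticed in the data and was not tested.

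C8b lies 11130 bases from C8a on the opposite strand (chromosome 4, 104766317 to 104804548) and stood at 161, 161, 162 and 157 TPM from control 1 to control 4 and 112, 144, 122 and 142 TPM from Myc-labelled 1 to Myc-labelled 4. The controls spanned 157 to 162 TPM and all 4 Myc-labelled libraries lay below them. The log2 difference was -0.31 ± 0.16 (95% interval -0.66 to 0.04, unadjusted p = 0.0806, adjusted p = 1.0, limma), and it lay between -0.36 and -0.22 in the other settings run. The ratio of C8a to C8b was 0.934 to 2.1. C8g, the gamma chain, ranged over 46 to 219 TPM, the widest fold range of the complement members (0.37 ± 0.44). It overlaps Fbxw5 on the opposite strand, whose mean was 31.1% of that of C8g. C9, which forms most of the pore, stood at 228, 111, 252 and 195 TPM in controls 1 to 4 against 158, 199, 114 and 294 TPM in Myc-labelled 1 to 4. Control replicate 2 and Myc-labelled replicate 3 were lowest and Myc-labelled replicate 4 highest (-0.06 ± 0.32). Hc, complement component 5 by its mouse symbol, stood at 238, 251, 385 and 310.3 TPM in controls 1 to 4 against 294, 261, 192 and 321 TPM in Myc-labelled 1 to 4, with groups that overlapped (-0.15 ± 0.22).

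Both complement inhibitors stood lower without passing the test. Cfi, the protease that cuts C3b and C4b, stood at 666, 758, 822 and 738 TPM in controls 1 to 4 against 625, 715, 589 and 647 TPM in Myc-labelled 1 to 4 (-0.21 ± 0.17). C4bp, its cofactor, stood at 655, 593, 662 and 547 TPM in controls 1 to 4 against 455, 563, 550.0 and 486 TPM in Myc-labelled 1 to 4 (-0.26 ± 0.17). For Cfi only Myc-labelled replicate 2 entered the control range, and for C4bp replicates 2 and 3 did.

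Coagulation and complement were set side by side in each library by the mean of the members' log2(TPM + 1), centred on each gene's mean over the 8 libraries. The coagulation score was -0.04, 0.10, 0.04 and -0.04 in control replicates 1 to 4 and -0.18, -0.01, 0.08 and 0.05 in Myc-labelled replicates 1 to 4. The complement score was -0.10, -0.05, 0.10 and 0.25 in control replicates 1 to 4 and -0.16, 0.01, -0.23 and 0.18 in Myc-labelled replicates 1 to 4. Coagulation minus complement was 0.06, 0.15, -0.06 and -0.29 in control replicates 1 to 4 and -0.02, -0.02, 0.32 and -0.13 in Myc-labelled replicates 1 to 4. Coagulation thus stood furthest above complement in Myc-labelled replicate 3 and control replicate 2 and furthest below it in control replicate 4, and the mean of this difference was -0.04 ± 0.19 (SD, n = 4) in the controls and 0.04 ± 0.20 (SD, n = 4) in the Myc-labelled libraries. Without Fga, Fgb and Fgg the difference was 0.05, -0.02, 0.04 and -0.11 in control replicates 1 to 4 and 0.04, 0.09, 0.10 and -0.18 in Myc-labelled replicates 1 to 4. The range over libraries was then -0.18 to 0.10 in place of -0.29 to 0.32. Control replicate 4 was the highest library for 6 of the 18 coagulation members and 6 of the 17 complement members. Myc-labelled replicate 3 was the highest for 7 coagulation members and 1 complement member, and the lowest for 7 coagulation and 6 complement members. Without the fibrinogen genes it was the highest for 4 coagulation members. The shares of all genes that were highest or lowest in these libraries were not counted, so these counts cannot be read as particular to the members.

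**Figure D5:**
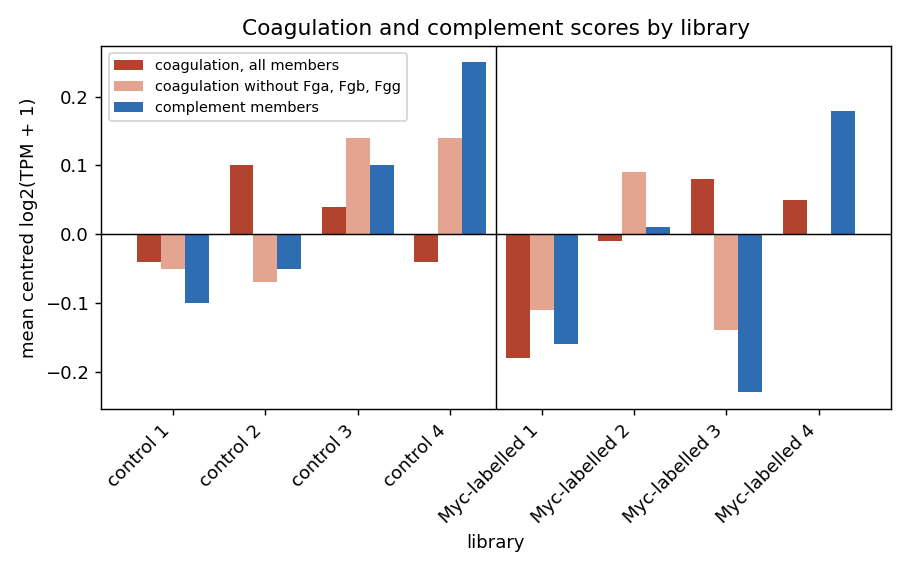
Bars give the mean centred log2(TPM + 1) of all 18 coagulation members (red), of the 15 without the fibrinogen genes (light red) and of the 17 complement members (blue) in each of the 8 libraries. In control replicate 2 and Myc-labelled replicate 3 the red bar is above 0 and the other bars are below it, and in control replicate 4 the red bar alone is below 0.

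Summed levels were also compared. Coagulation members summed, in TPM, to 30743, 53302, 25892 and 19426 in control replicates 1 to 4 and 22425, 23416, 60404 and 36093 in Myc-labelled replicates 1 to 4. Complement members summed, in TPM, to 9280.4, 16122, 13078 and 14339 in control replicates 1 to 4 and 10051, 11633, 12738 and 11882 in Myc-labelled replicates 1 to 4. The 15 coagulation members other than fibrinogen spanned only 6474 to 9316 TPM. Mean sums were 13205 ± 2899 TPM (SD, n = 4) in the controls and 11576 ± 1121 TPM (SD, n = 4) in the Myc-labelled libraries for complement. For coagulation they were 32341 ± 14723 and 35584 ± 17678 TPM (SD, n = 4), a difference smaller than either SD.

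Of the other genes of both systems 0 passed the threshold. Of 25 further coagulation and fibrinolysis genes 24 were tested, 16 stood lower and 8 higher (median -0.13), with 0 at an unadjusted p under 0.05 (limma). Hrg, the histidine-rich glycoprotein, stood at 2978 ± 822 TPM under control against 2033 ± 223 TPM under the Myc label (SD, n = 4) (-0.51 ± 0.24). Adamts13, the protease that trims von Willebrand factor, stood at 1.57 ± 0.441 TPM under control against 0.864 ± 0.227 TPM under the Myc label (SD, n = 4) (-0.46 ± 0.21). Plg, the plasminogen gene, was the only gene of the 24 whose groups did not overlap, and is named after its values were seen. It stood at 1756 ± 131 TPM under control against 1428 ± 131 TPM under the Myc label (SD, n = 4) (-0.3 ± 0.17, limma unadjusted p = 0.1). Over all 13055 genes tested, 42 were apart in this direction and 122 in the other. Of 33 further complement genes 29 were tested, 20 stood lower and 9 higher (median -0.18), and 1, C1s2, had an unadjusted p under 0.05. C1qc, part of the recognition unit of C1 and made by macrophages, stood at 166 ± 21.4 TPM under control against 124 ± 31 TPM under the Myc label (SD, n = 4) (-0.44 ± 0.21). Cd55, a membrane inhibitor of the convertases, stood at 12 ± 4.74 TPM under control against 7.04 ± 2.38 TPM under the Myc label (SD, n = 4) (-0.64 ± 0.32).

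Of 17 hepatocyte transcription factors 13 stood lower and 4 higher (median -0.11), with 0 past the threshold and 0 at an unadjusted p under 0.05 (limma). The smallest p-values were those of the circadian factors Dbp, at 34.3 ± 9.03 TPM under control against 19.6 ± 15.8 TPM under the Myc label (SD, n = 4), and Tef, at 66.2 ± 15.4 TPM under control against 48.5 ± 20.1 TPM under the Myc label (SD, n = 4), and of the bile acid induced repressor Nr0b2, at 36.5 ± 17.9 TPM under control against 47.9 ± 17.7 TPM under the Myc label (SD, n = 4). Among markers of other cells, 8 of 8 Kupffer cell markers stood lower (median -0.40) and summed to 448 to 1241 TPM in the controls against 396 to 726 TPM in the Myc-labelled libraries. Neutrophil markers stood higher in 7 of 7 (median 0.71) and stellate and myofibroblast markers in 8 of 8 (median 0.59). Endothelial markers stood lower in 9 of 10 (median -0.20). Cholangiocyte markers stood higher in 6 of 6 tested (median 0.38) and erythroid and platelet markers in 5 of 5 tested (median 0.49). Summed levels overlapped between the groups in all these lists. They were 14.5 to 70.1 TPM under control and 26.8 to 160.0 TPM under the Myc label for neutrophils, 26.7 to 128 TPM under control and 36.8 to 275 TPM under the Myc label for stellate cells, 152 to 224 TPM under control and 119 to 207 TPM under the Myc label for endothelium, 98.4 to 322 TPM under control and 118 to 971 TPM under the Myc label for cholangiocytes and 229.9 to 1147 TPM under control and 486 to 1047 TPM under the Myc label for erythroid cells and platelets. The platelet marker Gp9 was at 0 in control replicate 3 and Myc-labelled replicates 1 and 2. None of these genes passed the threshold. An unadjusted p under 0.05 (limma) was found for 1 endothelial and 2 neutrophil markers, where 1.86% of all genes lay. Groups did not overlap for 1 neutrophil marker, higher under the Myc label. Over all 13055 genes tested, 122 were apart in this direction and 42 in the other. The part of these markers in the member values was not tested.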

How the data were processed

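Liver RNA-seq tables of 8 libraries were used, 4 per group, with groups and replicate numbers read from the sample titles. Alignment with HISAT2 to mm10 and quantification with StringTie are listed in the submitters' processing notes, without versions. The deposited tables give, per the file headers, TPM values and FPKM values for each gene, both computed by the authors. They also give the authors' mean coverage per gene, per the file headers, which with FPKM yielded aligned bases of 5.29 to 6.74 Gb. Nothing in the tables gives read counts, so counting intervals could not be computed. Rows repeating a gene ID (10 to 15 per table, none a member) were summed.

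The 13055 of 53816 genes whose mean reached 1 TPM entered a linear model of log2(TPM + 1), fitted by limma 3.58.1 in R 4.3.3 (trend and robust, 2 groups, two-sided) with Benjamini-Hochberg adjustment. The procedure was tested on simulated data, with independent noise for each gene and planted changes larger than any member difference here. That test does not show whether changes of the size seen here would be found. Scores, ratios and sums used Python 3.11.15, pandas 2.3.3 and numpy 2.4.6. Values in every library are given for a fixed set of members, for the 4 smallest p-values of each cascade and for members whose groups did not overlap. Up to 3 genes with the smallest p were named per further list. Some values of single genes in these lists are not reported here. Members and lists were chosen with earlier results of these data known. Nothing says more of the replicates than their numbers, so whether each library came from its own mouse is not known. The p-values measure the spread between these libraries. Alternatives covered the pseudocount, filter, scaling, FPKM, weights, covariates, replicate block and each library left out.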

Additional observations from a re-analysis of the deposited data

Results flagged for a closer look

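Of 70 groups of 4 values, 1 per member gene and group, 2 held a library far from the other 3, where chance alone puts about 1 in 20 groups. F9 in Myc-labelled replicate 3 stood at 65.9 TPM, while the other 3 Myc-labelled libraries lay between 101 and 107 TPM, a gap of 0.86 of the group's range. Masp2 in Myc-labelled replicate 4 stood at 114 TPM, with the other 3 between 98.1 and 100.4 TPM, a gap of 0.855 of the range.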

How the results depend on the processing

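Under 20 alternatives, and with control replicate 2 and Myc-labelled replicate 3 left out together, a setting chosen after the data were seen, 0 members passed the threshold. Over all genes 0 passed in these settings, except 1 with array weights. The coagulation median lay between -0.14 and -0.02 and the complement median between -0.22 and -0.09. Coagulation minus complement lay between -0.02 and 0.13 (0.07 with all libraries), at -0.02 without control replicate 4 or without Myc-labelled replicate 3. Leaving out Fga, Fgb and Fgg, also chosen after the data were seen, gave a coagulation median of -0.10 and a coagulation minus complement of 0.02. The log2 ratio of summed TPM was recomputed with FPKM, with median-of-ratios scaling and without each library. It lay between -0.33 and -0.08 for complement (-0.19 with all libraries), the lowest without control replicate 1 and the highest without control replicate 2. For coagulation (0.14 with all libraries) it lay between -0.24 without Myc-labelled replicate 3 and 0.49 without control replicate 2, and was -0.04 without control replicate 4 and -0.09 without the fibrinogen genes. The replicate block gave 0 members past the threshold and medians of -0.07 and -0.14. Residuals of same-numbered libraries correlated at 0.13, -0.06, 0.07 and 0.07, and 1 of the 4 Myc-labelled libraries correlated best with its own number. These correlations, each taken over all genes tested, gave no clear sign that the numbers pair the libraries. With only 4 libraries per group they cannot exclude it. For 25 genes described by library, 40 values turned sign and 485 did not, none of them called, and the cause was not tested. With array weights these were F2 at 0.04, F5 at -0.01, Fga at -0.04, Fgb at -0.03, Fgg at -0.01, C6 at -0.46 and C9 at 0.03. With the hepatocyte covariate they were Fga at -0.19, Fgb at -0.23, Fgg at -0.19, C6 at -0.14 and C9 at 0.10. C6 was -0.31 with the Xist covariate and -0.42 without control replicate 2 and Myc-labelled replicate 3 together, a setting in which Mbl1 was 0.11. Cfb was -0.01 with median-of-ratios scaling. With each library left out in turn, F2 ranged from -0.15 to 0.0, F5 from -0.07 to 0.16, Fga from -0.14 to 0.6, Fgb from -0.2 to 0.51 and Fgg from -0.15 to 0.54. C6 ranged from -0.3 to 0.35, C8a from -0.31 to 0.08, C9 from -0.31 to 0.16, Cfb from -0.05 to 0.12, Masp1 from -0.26 to 0.0, Mbl1 from -0.34 to 0.16 and Mbl2 from -0.2 to 0.5. Without a change of sign, F7 ranged from -0.25 to -0.08, lowest in size without control replicate 4, F11 from 0.17, without control replicate 1, to 0.49, and Proc from -0.20 to -0.06. C1ra ranged from -0.40 to -0.18, the latter without control replicate 4. Precision is limited by 4 libraries per group, and the tables hold no read counts.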

Other observations

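C1qa, C1qb and C1qc, made by macrophages, encode the chains of the recognition unit of C1. C1qa stood at 153, 161, 126 and 187 TPM in controls 1 to 4 against 169.9, 129, 90.8 and 119.9 TPM in Myc-labelled 1 to 4. C1qb stood at 197, 222, 161 and 234 TPM in controls 1 to 4 against 203, 175, 92.4 and 148 TPM in Myc-labelled 1 to 4. C1qc stood at 155, 173, 143 and 192 TPM in controls 1 to 4 against 162, 136, 94.1 and 104 TPM in Myc-labelled 1 to 4. C1qa and C1qb were lowest in the 3 libraries with Xist under 1 TPM, but C1qc was not, since control replicate 3 lay above Myc-labelled replicate 2. Clu, the clusterin gene, an inhibitor of the terminal complex, stood at 2207, 2285, 3135 and 2975 TPM in controls 1 to 4 against 2404, 2979, 3552 and 4322 TPM in Myc-labelled 1 to 4, highest in those 3 libraries. These orders were noticed in the data and were not tested, and the share of all genes with them was not counted.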
